A study of Mus musculus with 6 samples.

Results

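Processed pseudogenes are copies of a messenger RNA that were reverse transcribed and inserted into the genome, so they lack the introns of the parent gene and usually its promoter. Genes with abundant messenger RNA in the germ line, such as those of ribosomal proteins and of Gapdh, have left many such copies. Reads from a parent messenger RNA can be placed on a copy that differs from it by few bases, so a count on a processed pseudogene can hold RNA of the locus, RNA of the parent, or both. The set described here holds each gene that the count table types as a processed or transcribed processed pseudogene and that had a mean raw count of 100 or more over all cultures. It has 342 members, of 9773 processed pseudogenes and 54532 genes listed. Of the processed pseudogenes, 3665 had at least 1 count and 1107 passed the filter on low counts. All 342 members passed that filter. Of the members, 317 were typed as processed and 25 as transcribed processed pseudogenes. The members were selected on this mean count, so their levels are given as a description, and the comparison between groups was not used in the choice. In 41 members the mean was under 100 counts in 1 group only, in the ALX-5407-treated cultures for 21 and in the Th1 cultures for 20.

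Messenger RNA was sequenced from CD4+ T cells isolated by magnetic beads from spleens of male C57BL/6 mice and polarized under Th1 conditions, with 3 cultures per group. The Th1 group received vehicle (0.1% DMSO), and the ALX-5407 group received 500 nM ALX-5407, which blocks GlyT1, a transporter of glycine. The series' design text gives 72 h of exposure, whereas the methods give 24 h, and the sample labels give poly-T capture, whereas the methods give depletion of ribosomal RNA. The labels call the cultures biological replicates, and nothing more says whether they came from separate mice. The p-values set the difference between groups against the spread between these cultures, and need not extend to other mice. Counts per library ranged from 30801753 to 36727788. All 10 T cell markers checked were present, with a summed level of 3328 to 3468 CPM (read counts scaled to library size, with TMM factors). Markers of other lymphoid and myeloid cells summed to 14.3 to 15.9 CPM, with Lyz2, Itgam, Adgre1 and Hbb-bs at 12 counts or fewer in each library. Within these lists the B cell genes Ms4a1 and Cd79a were higher with ALX-5407 (log2 fold changes of 1.27 and 0.67, adjusted p = 0.00528 and 0.046 in edgeR) and Cd8a was lower (-0.80, adjusted p = 0.0111), and the part of such cells in the results was not tested.

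The members were mostly short and close to their parents. Their median length was 654 bases, with a range from 78 to 6092 bases. For 340 members the best match among coding transcripts of GENCODE M21 named a parent, and 239 parents were involved. The name of 85 members gave a parent, as in Rps13-ps2, and in all 85 the best match was the same gene. Median identity to the parent was 99.3%, 208 members were at 99% or more, and 51 were identical to the parent over the aligned bases. The longest stretch without a difference had a median of 271 bases. How reads with several equally good places were counted is not given in the sources used here, and neither is the use of strand. Reads that lie wholly within a stretch shared by a member and its parent cannot be assigned to either by their bases. The counts of a member and its parent can therefore mix.

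The sequences that follow, from GENCODE M21 on GRCm38, show how little separates some copies from their parents. Except for Gm3362, they come from copies called opposite to another copy or to the parent. Capitals mark the bases that differ between a pseudogene and its parent, and positions are counted from 1 at the 5′ end of the pseudogene. Coordinates are those of the stretch shown, all of it in the part that aligns to the coding sequence of the parent. Rpl35a-ps2 (chr1:181242139-181242191, minus strand), Rpl35a-ps3 (chr17:29137123-29137175, minus strand) and Gm10243 (chr6:48523647-48523699, plus strand) hold the same 333 bases and differ from Rpl35a by G156A alone.
Rpl35a-ps2, Rpl35a-ps3 and Gm10243: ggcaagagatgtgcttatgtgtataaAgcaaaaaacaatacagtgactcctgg
Rpl35a: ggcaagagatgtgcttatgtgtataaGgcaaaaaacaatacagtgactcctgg
Rps13-ps2 (chr7:88530497-88530549, minus strand) has no difference from Rps13 in its 453 bases, so this stretch has no capitals.
Rps13-ps2 and Rps13: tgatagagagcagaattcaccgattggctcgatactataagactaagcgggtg
Gm8430 (chr6:122456948-122457000, plus strand) and Rps27a-ps2 (chr9:83410008-83410060, plus strand) each differ from Rps27a by 1 base, A71G in Gm8430 and A375G in Rps27a-ps2.
Gm8430: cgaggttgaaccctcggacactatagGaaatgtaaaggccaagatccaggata
Rps27a: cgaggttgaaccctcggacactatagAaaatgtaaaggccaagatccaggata
Rps27a-ps2: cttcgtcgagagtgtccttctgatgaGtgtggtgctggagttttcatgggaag
Rps27a: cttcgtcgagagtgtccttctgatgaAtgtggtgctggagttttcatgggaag
Gm3362 (chr15:37943593-37943657, minus strand), the member that fell most, differs from Rpl23a by C142T, G158A, C184A and C194T, all within 65 bases.
Gm3362: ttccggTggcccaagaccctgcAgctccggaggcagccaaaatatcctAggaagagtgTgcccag
Rpl23a: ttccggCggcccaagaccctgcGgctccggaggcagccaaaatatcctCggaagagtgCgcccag

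More processed pseudogenes were lower than higher in ALX-5407-treated Th1 cells. Genes were compared by edgeR (quasi-likelihood test, p-values adjusted by Benjamini-Hochberg over 15938 genes, SE for standard errors). Of the members, 144 (42.1%) were lower at an adjusted p under 0.05 and 47 (13.7%) were higher. Over all genes tested, 23.2% were lower and 24.5% were higher. In such bulk samples fewer cells of a type and less RNA per cell cannot be told apart. The median log2 fold change (ALX-5407 over Th1) was -0.29 over the members and 0.01 over all genes tested, with 230 members below 0 and 112 above. Protein-coding genes with a mean of 100 counts or more had a median of 0.06, with 25.1% lower and 33.0% higher. Unprocessed pseudogenes at the same level, which arise by duplication of a locus, numbered 38, of which 13 were lower and 6 higher. Among the 765 tested processed pseudogenes under 100 counts, 167 were lower and 33 higher. With the study's threshold of an absolute log2 fold change over 1 for a differentially expressed gene (DEG), 44 members were downregulated and 4 upregulated, where 6.68% and 3.36% of all genes passed. Without ALX-5407 culture 1, 7 were upregulated. The 3 cultures of one group lay wholly below those of the other for 132 members and wholly above for 45, where the same held for 27.1% and 28.4% of all genes tested. Restricted to the 301 members with a mean of 100 counts or more in each group, 125 were lower and 37 higher, and 27 and 2 were DEGs.

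The members took 0.981%, 1.01% and 0.919% of all counts in the Th1 cultures and 0.781%, 0.798% and 0.742% in the ALX-5407-treated cultures. Every treated culture lay below every Th1 culture. The parents, counted once each, took 18.6% to 18.8% of counts in the Th1 cultures and 14.9% to 15.8% in the treated cultures, with no overlap either. Th1 culture 3 stood low for this set, with 225 of 342 members under the mean of their own group. Without it, 162 members were lower and 47 higher.

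**Figure D1:**
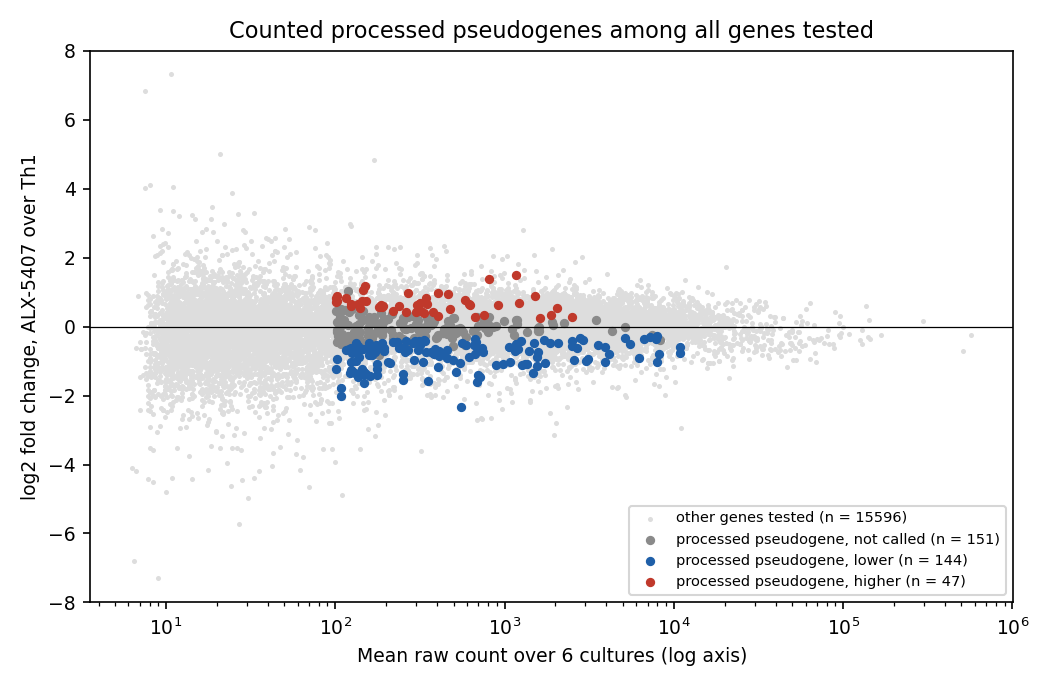
The log2 fold change (ALX-5407 over Th1, vertical axis) is plotted against the mean raw count over 6 cultures (horizontal log axis) for all 15938 genes tested, with 342 processed pseudogenes in colour. The 144 called lower (blue) outnumber the 47 called higher (red), and both span the range of counts from 100 to over 1000.

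The members with the most counts were copies of ribosomal protein genes. Gm9794, a copy of Rpl23, had 12957, 13183 and 12666 counts in the Th1 cultures and 8833, 9429 and 7841 in the treated cultures. The groups did not overlap, and the log2 fold change was -0.76 (SE 0.0725, adjusted p = 4.01e-07 in edgeR) against -0.71 for Rpl23. Gm10275, identical to Rpl12, fell by 0.58 on the log2 scale, and Rpl12 fell by 0.47. Gm6136 (Rpl6), Gm6472 (Rps7), Rps16-ps2 (Rps16), Rps10-ps2 (Rps10) and Gm15500 (Rpl5) were also lower, with log2 fold changes from -1.02 for Gm6472 to -0.26 for Rps16-ps2. The adjusted p of Rps16-ps2, 0.0154, rose to 0.0773 without Th1 culture 1 and to 0.0999 without ALX-5407 culture 3. Rpl17-ps10 and Rpl17-ps3 did not pass the test, with log2 fold changes of -0.38 and -0.24. In edgeR without the filter on low counts both passed (adjusted p = 1.45e-05 and 0.0137). In DESeq2 neither passed (adjusted p = 0.535 and 0.402). With a culture left out, Rpl17-ps10 ranged from -0.63 to 0.11, and Rpl17-ps3 passed the test at -0.49 without ALX-5407 culture 1 (adjusted p = 0.00115 in edgeR) and was at -0.09 without ALX-5407 culture 3. Just inside the limit of 100 counts, Gm10051, AC165151.1 and Gm12418 had mean counts of 100.5, 101 and 102 and log2 fold changes of 0.72, 0.84 and 0.44. All of them had Th1 means under 100 counts and were members only through the treated group, where their means were higher. Just outside, Gm6430, Gm12276 and Rps12-ps9 had mean counts of 99.7, 97.3 and 96.8 and log2 fold changes of 1.31, -1.15 and -0.47.

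By the function of the parent, the median log2 fold change of the members ran from -0.94 for glycolytic genes to -0.01 for genes in none of the lists. Copies of the large ribosomal subunit, which holds the peptide-forming centre of the ribosome, numbered 81, of which 52 were lower and 6 higher, with a median log2 fold change of -0.66. The coding genes of that subunit numbered 49 in the test, of which 45 were lower and 0 higher, with a median of -0.50. Copies of the small subunit, which reads the messenger RNA, numbered 48, of which 25 were lower and 10 higher, with a median of -0.31. Its coding genes numbered 34, with 28 lower, 1 higher and a median of -0.49. Copies of glycolytic and lactate enzymes numbered 20, of which 13 were lower and 0 higher, with a median of -0.94, and 13 of the 20 were copies of Gapdh. The coding genes of that list also numbered 20, with 9 lower, 1 higher and a median of -0.18.

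The other lists held fewer members. Copies of translation factors numbered 15, of which 6 were lower and 2 higher, where of the 29 coding genes of that list 12 were lower and 4 higher. Gm2999, a copy of the helicase gene Eif4a2, fell by 1.06 on the log2 scale, the same as its parent, whereas the 3 copies of the elongation factor gene Eef1a1 differed. Gm6548 rose by 0.63, Gm13456 was lower at -0.48 and Gm5869 was not called at -0.44 (adjusted p = 0.0718 in edgeR), with Eef1a1 lower at -0.24. Among 18 copies of chromatin and histone-binding genes, 6 were lower and 4 higher, and of the 35 coding genes 7 and 13. All 4 copies of Npm1, which encodes nucleophosmin, a nucleolar histone chaperone, were lower, from -1.05 for Gm14681 to -0.72 for Gm9118, and Npm1 itself was at -0.78. Among 18 copies of RNA-binding and splicing genes, 8 were lower and 4 higher, and of the 53 coding genes 16 and 10. Among 15 copies of chaperone and protein turnover genes, 4 were lower and 5 higher, and of the 52 coding genes 12 and 17. Among 7 copies of cytoskeletal genes, 1 was lower and 1 higher, and of the 28 coding genes 9 and 10. Among 10 copies of nuclear genes for mitochondrial proteins, 2 were lower and 1 higher, and of the 67 coding genes 29 and 9. The 108 members whose parents were in none of these lists had a median of -0.01, with 26 lower and 13 higher. Members of one parent can share its reads and are not independent.

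**Figure D2:**
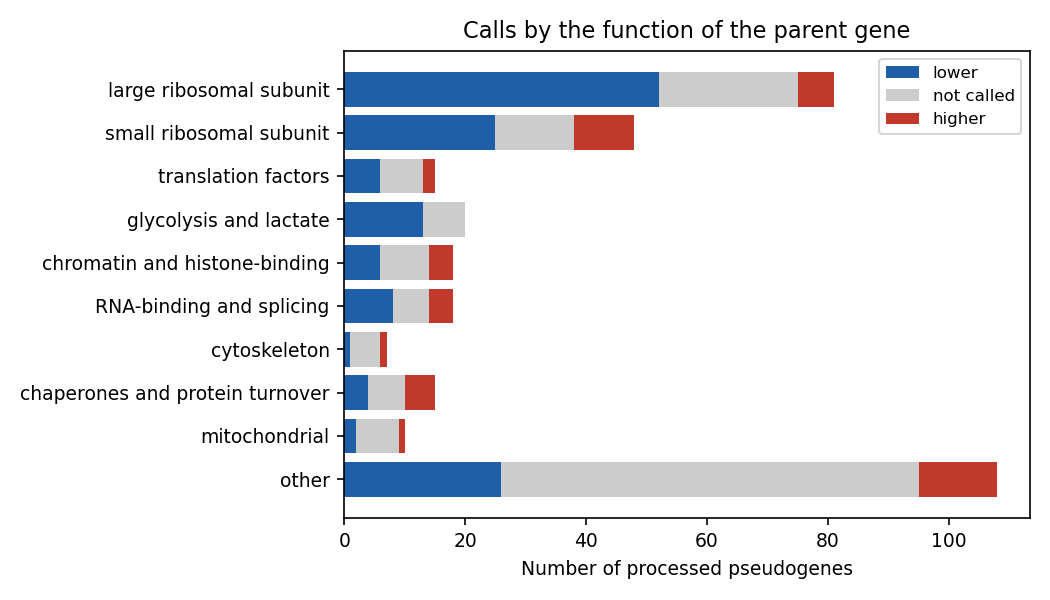
Bars give the number of processed pseudogenes (horizontal axis) called lower (blue), not called (grey) and higher (red) at an adjusted p under 0.05, by the function of the parent gene. Of the 81 copies of large ribosomal subunit genes 52 were lower, and of the 20 glycolytic copies 13 were lower and 0 higher.

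The member that rose most was Gm12250 (ENSMUSG00000082292, chromosome 11 from 58187739 to 58189012, plus strand). It had 602, 505 and 551 counts in the Th1 cultures and 1756, 1789 and 1808 in the treated cultures, and the groups were far apart. The mean level was 17.5 ± 1.24 CPM in Th1 cultures and 49.7 ± 1.81 CPM in treated ones (SD, n = 3 each). The log2 fold change was 1.51 (SE 0.0876, adjusted p = 2.27e-09 in edgeR). RefSeq on GRCm38 lists this gene as protein coding under the synonym Irgb10, a member of the interferon-inducible immunity-related GTPases, so the label of processed pseudogene does not hold for it there. Its nearest coding transcript, that of Gm5431, was only 68.5% identical and had a mean of 4.83 counts. By symbol, 311 members were found in RefSeq, where 7 are protein coding, 20 are transcribed pseudogenes and 284 are pseudogenes. The other coding ones are Gm15501, Gm3325, Ppp1ccb, Rpl34-ps1, Rpl37rt and Tma7-ps. Without the 7, 140 of 335 members were lower and 45 higher.

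Rps13-ps2 rose next. It lies on chromosome 7 and had 482, 413 and 320 counts in the Th1 cultures and 1055, 1328 and 1228 in the treated cultures. Each treated culture held more than 2 times the count of any Th1 culture. The log2 fold change was 1.39 (SE 0.122, adjusted p = 1.71e-07 in edgeR), whereas Rps13, which encodes a small-subunit protein, fell by 0.34 (adjusted p = 0.00111). The log2 ratio of pseudogene to parent, taken within each library and so independent of library scaling, rose by 1.74 (adjusted p = 0.000245 by limma over 190 pairs with a parent from the name). The second copy, Rps13-ps1, with 99.6% identity, was lower at -0.59 (adjusted p = 0.012 in edgeR).

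Both members that match Ube2l3, a gene for a ubiquitin-conjugating enzyme, were among the largest rises. Gm10145 had 61, 89 and 100 counts in the Th1 cultures and 181, 292 and 172 in the treated cultures, a log2 fold change of 1.17. Gm10705 had 281, 190 and 284 counts and then 512, 717 and 457, a log2 fold change of 0.97. Ube2l3 rose by 0.26, and the difference in ratio did not pass the test for either copy (adjusted p = 0.0781 and 0.119 by limma over 1067 pairs with a parent from sequence). Of 5 copies of the gene for the chromatin protein HMGB1, Hmgb1-ps2, Gm5527 and Gm5518 rose by 1.06, 0.82 and 0.38, and Gm15387 and Gm13577 were not called at 0.05 and -0.19 (adjusted p = 0.801 and 0.469 in edgeR), where Hmgb1 itself was at 0.01 (adjusted p = 0.919). Hmgb1-ps2 was at 0.66 without ALX-5407 culture 3 (adjusted p = 0.0483 in edgeR). Gm10145, Hmgb1-ps2 and Gm5527 had Th1 means of 83.3, 87.3 and 76.3 counts and were members only through the treated group, where they were higher. The ratios of the 3 higher copies to Hmgb1 did not pass the test, with adjusted p of 0.0682, 0.0602 and 0.346 by limma.

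Some copies rose with their parents, and these examples were chosen after their values were seen. Gm5182, a copy of the acetyl-CoA carboxylase gene Acaca, was at 0.78 and Acaca at 0.92. Gm3571 and Gm5873, copies of Fdps, which encodes an enzyme of the sterol pathway, were at 0.63 and 0.89, and Fdps was at 0.74. Vcp-rs was at 0.54 and Vcp, the gene of an ATPase in protein turnover, at 0.50. Hmgn2-ps1 was at 0.75 and Hmgn2, which encodes a nucleosome-binding protein, at 1.12. In each of these pairs both genes were called higher. Gm5873 and Hmgn2-ps1, with Th1 means under 100 counts, were members only through the treated group.

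Gm3362, in an intron of Rrm2b on the strand of that gene, fell most. It had 724, 872 and 1105 counts in the Th1 cultures and 216, 180 and 212 in the treated cultures, a log2 fold change of -2.34 (SE 0.159, adjusted p = 1.15e-08 in edgeR). Rpl23a, its parent in the large subunit, was at -1.04, and the ratio fell by 1.29 on the log2 scale (adjusted p = 0.0144 by limma). The host gene Rrm2b was higher, at 0.29. Gm10335, another copy of Rpl23a, was at -1.61. Rpl7a-ps11 was at -1.64 with its parent at -0.61, and Gm19810, a copy of Rps21, was at -1.56 with its parent at -0.54. Gm12411, a copy of Rpl21, was at -1.45, as was Rpl21.

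Pgk1-rs7 is identical to Pgk1, which encodes phosphoglycerate kinase of glycolysis, over its aligned bases. Its counts were 615, 551 and 362 in the Th1 cultures and 192, 224 and 168 in the treated cultures, so the groups did not overlap. The log2 fold change was -1.57 (SE 0.166, adjusted p = 1.25e-06 in edgeR) against -0.38 for Pgk1, and the ratio fell by 1.17 (adjusted p = 0.00516 by limma). The member held 0.28% of the count of Pgk1.

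Of the 85 pairs in which the name gives the parent, 65 had fold changes of the same sign and 20 of opposite sign. In these pairs 55 members and 71 parents lay below 0, so many pairs share a sign whether or not the genes of a pair move together. In 40 pairs both genes passed the test, of which 31 were lower in both, 2 higher in both, and 7 had a higher pseudogene and a lower parent. None had a lower pseudogene and a higher parent, but only the 2 pairs higher in both had a parent called higher. With the parent from sequence, 334 pairs could be compared, and 255 (76.3%) had the same sign. In 155 of these both genes passed the test, with 123 lower in both, 14 higher in both and 18 in opposite directions. Of those 18, 17 had the higher pseudogene, and 14 had a ribosomal protein parent. The 17 include Gm10051 and Rpl35a-ps3, which passed the limit of 100 counts only through the treated group, where they were higher. Among the 155 pairs, the parent was called higher only in the 14 higher in both and in 1 other. With a ribosomal protein parent, 85 pairs had both genes called, and the parent was higher in none. A lower pseudogene with a higher parent therefore had few pairs in which to occur. In the 334 pairs 225 members and 256 parents lay below 0. Pearson's r was 0.54 across the 334 pairs and 0.39 across the 85 named ones, as a description over pairs that share libraries, reads and in part the parent. With the parent from sequence it was 0.20 over the 129 ribosomal pairs and 0.66 over the other 205.

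**Figure D3:**
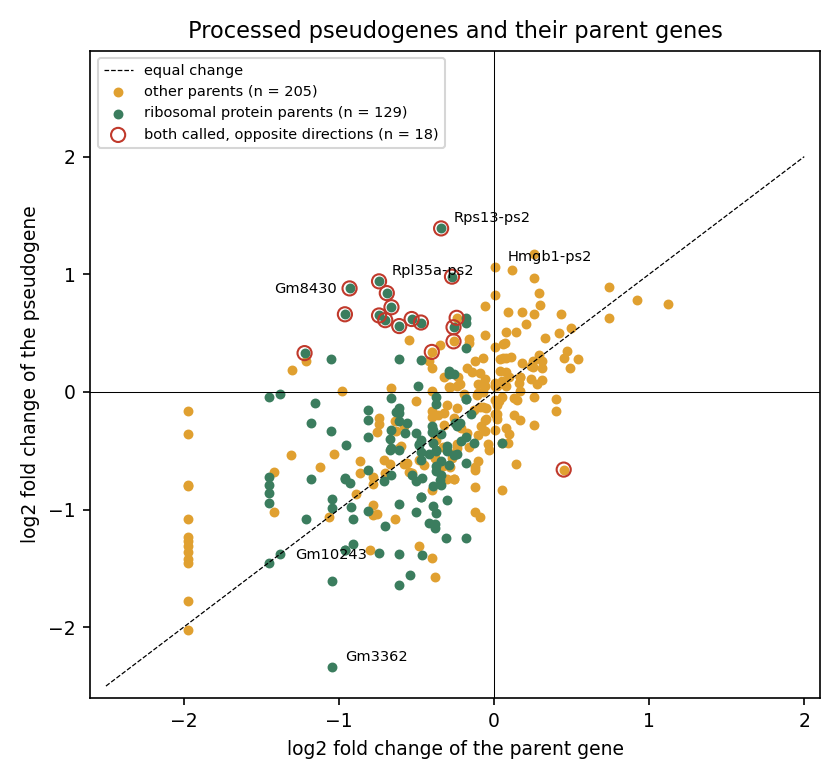
Each point is a processed pseudogene, with the log2 fold change of its parent on the horizontal axis and its own on the vertical axis, green for ribosomal protein parents (129) and orange for other parents (205). Red rings mark the 18 pairs called in opposite directions, of which 17 lie at upper left, and the vertical column at -1.97 holds the 13 copies of Gapdh.

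Members lower outnumbered those higher at each closeness to the parent, as they did over all members. Over all members 42.1% were lower and 13.7% higher, and over all genes tested 23.2% and 24.5%. Of the 51 members at 100% identity, 24 (47.1%) were lower and 5 (9.80%) higher. Of the 63 at 98% or less, 22 (34.9%) were lower and 8 (12.7%) higher. Same-sign pairs made up 76.5% at 100% identity, 80.8% over 99% and under 100%, 68.1% over 98% to 99%, and 74.1% at 98% or less. The median count of a member was 3.95% of that of its parent, with 8.42% over the pairs at 100% identity and 1.32% over those at 98% or less. Members in a region without another gene numbered 222, of which 90 (40.5%) were lower and 34 (15.3%) higher, near the shares over all members. In an intron of a gene on the same strand there were 53, with 25 (47.2%) lower and 5 (9.43%) higher. In an intron on the opposite strand there were 55, with 27 (49.1%) lower and 6 (10.9%) higher. Of the 38 members in an intron on the same strand whose host was tested, 18 had the sign of the host.

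The ratio of pseudogene to parent changed in 15 of the 85 named pairs. It was higher in 9 (10.6%) and lower in 6 (7.06%) by limma, where 4.74% of the 190 pairs of any level were higher and 4.74% lower. The members are part of these 190 pairs and hold all 9 of their higher ratios and 6 of their 9 lower ones. The shares of higher ratios thus differ only in the number of pairs that they are taken over. All 9 with a higher ratio were copies of ribosomal protein genes: Rps13-ps2, Rpl35a-ps2, Rps12-ps4, Rpl35a-ps3, Rpl38-ps2, Rps18-ps3, Rpl36-ps2, Rps15a-ps7 and Rpl10a-ps1. The first rose by 1.74 on the log2 scale and Rpl10a-ps1 by 0.54. Of these, Rpl38-ps2 was at -0.02, Rpl36-ps2 at 0.28 and Rpl10a-ps1 at 0.05, none past the test, while their parents were lower. With a culture left out, Rpl36-ps2 ranged from 0.01 without ALX-5407 culture 2 to 0.49 without ALX-5407 culture 1, and Rpl38-ps2 from -0.24 to 0.14. The lower ratios were those of Pgk1-rs7, Tma7-ps and the ribosomal copies Rpl7a-ps11, Rpl34-ps1, Rpl14-ps1 and Rpl6l. Copies of ribosomal protein genes were thus among both the higher and the lower ratios. The number of lower ratios rested on single cultures and was 1 without Th1 culture 1 or ALX-5407 culture 2, 2 without Th1 culture 2, and 3 without ALX-5407 culture 1 or 3. With the parent from sequence, 28 of 334 ratios were higher and 13 lower, against 3.94% and 3.47% of 1067 pairs, which also hold the members. The 28 include Gm10051 and Rpl35a-ps3, members only through the treated group, where they were higher.

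The 7 named members that were higher while the parent was lower were Rps13-ps2, Rps15a-ps7, Rpl35a-ps2, Rps12-ps4, Rpl35a-ps3, Rps18-ps3 and Rps4x-ps. Rps12-ps4, in an exon of Nphs1 on the opposite strand, had 234, 246 and 202 counts in the Th1 cultures and 476, 496 and 421 in the treated cultures, a log2 fold change of 0.84 against -0.69 for Rps12. Rps15a-ps7 had 165, 168 and 164 counts and then 323, 486 and 311, a log2 fold change of 0.98 against -0.27 for Rps15a. Both members had groups that did not overlap. Rps18-ps3, with the differences G181C, A337C and C430T, was at 0.61 against -0.70 for Rps18. Its call was lost without ALX-5407 culture 3 (0.44, adjusted p = 0.0633 in edgeR). Rps4x-ps, at 0.55 against -0.26 for Rps4x, lost its call without Th1 culture 2, Th1 culture 3 or ALX-5407 culture 3 (0.43 to 0.56, adjusted p from 0.0516 to 0.096 in edgeR).

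The identical copies of Rpl35a, a gene of the large subunit, moved in both directions. Rpl35a-ps2 had 307, 288 and 272 counts in the Th1 cultures and 628, 628 and 640 in the treated cultures, a log2 fold change of 0.94 (SE 0.109, adjusted p = 2.84e-06 in edgeR). Rpl35a-ps3, in an intron of Rab44 on the opposite strand, had 98, 91 and 77 counts and then 146, 165 and 164, a log2 fold change of 0.65 (adjusted p = 0.00758). Gm10243, in an intron of Zfp862-ps on the same strand, had 225, 180 and 201 counts and then 105, 85 and 76, a log2 fold change of -1.37 (adjusted p = 1.48e-05). In none of the 3 did the groups overlap. Rpl35a-ps3, with a Th1 mean of 88.7 counts, and Gm10243, with a treated mean of 88.7, were members only through the group in which each was higher. Rpl35a itself was at 675 ± 64.0 CPM in Th1 cultures and 403 ± 81.5 CPM in treated ones (SD, n = 3 each), and its log2 fold change was -0.74. The 2 other sets of identical members moved one way, with Gm13370 and Gm10240 of Rpl21 at -0.86 and -0.72, and Gm13841 and Gm8210 of Rpl29 at -0.51 and -0.41.

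Rps27a, which encodes a fusion of ubiquitin and a ribosomal protein, showed the same split. Gm8430 had 997, 1218 and 728 counts in the Th1 cultures and 2116, 1963 and 2077 in the treated cultures, a log2 fold change of 0.88 (SE 0.129, adjusted p = 3.26e-05 in edgeR). Rps27a-ps2 had 467, 544 and 355 counts and then 246, 353 and 310, a log2 fold change of -0.77 (adjusted p = 0.000626). Rps27a was at -0.93, and the ratio to it rose by 1.86 for Gm8430 (adjusted p = 0.00188 by limma) and by 0.19 for Rps27a-ps2 (adjusted p = 0.625).

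**Figure D4:**
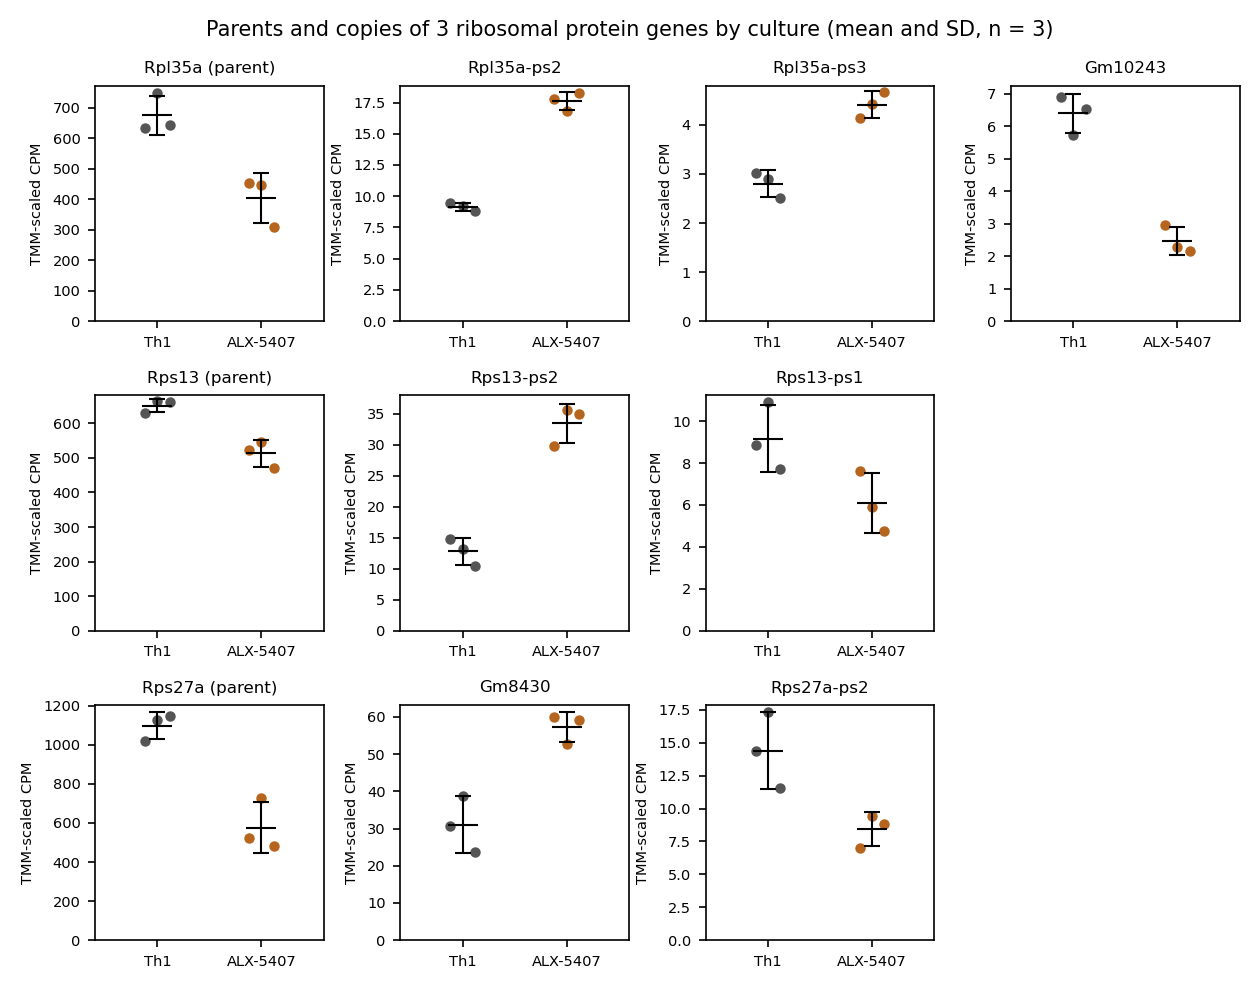
Points are TMM-scaled CPM (vertical axes, each from 0) of single cultures, with the mean and SD of 3 cultures per group, for Rpl35a, Rps13 and Rps27a (left column) and their copies. Rpl35a-ps2, Rpl35a-ps3, Rps13-ps2 and Gm8430 were higher with ALX-5407, and Gm10243, Rps13-ps1, Rps27a-ps2 and the 3 parents were lower.

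Of the 51 parents with 2 or more members, 13 had members called in both directions. Rps2 had 8 copies, of which 3 were lower and 2 higher, from -1.24 to 0.63, while Rps2 itself did not pass the test at -0.18. Rpl7a had 7, with 2 lower and 1 higher, and Hnrnpa3, the gene of a splicing factor, had 4, with 2 lower and 1 higher. All called copies of Rpl21 (5 of 6), Rpl29 (4 of 4) and Rpl23a (4 of 4) were lower.

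Gapdh, the gene of a glycolytic dehydrogenase, had 13 members, of which 11 were lower and 0 higher. Of these, 6 had a mean under 100 counts in the treated cultures alone, and of the other 7, 5 were lower. Gapdh had 18764, 12594 and 10033 counts in the Th1 cultures and 4127, 4714 and 3117 in the treated cultures, a log2 fold change of -1.97 (SE 0.162, adjusted p = 8.76e-08 in edgeR). Its copies ranged from -2.02 for Gm2451 to -0.16 for Gm7336. Gm5559 held the most counts, with 5193, 6014 and 3786 in the Th1 cultures and 3665, 3600 and 2616 in the treated cultures, a log2 fold change of -0.79. Gm3222, Gm12286, Gm14760, Gm10359, Gm12070, Gm12537, Gm13292, Gm13394 and Gm12033 lay between -1.78 and -0.80. Gm7336 and Gm2606 did not pass the test, with groups that overlapped. With a culture left out, Gm7336 was lower at -0.39 without Th1 culture 3 (adjusted p = 0.0437 in edgeR) and Gm2606 at -1.05 without ALX-5407 culture 1 (adjusted p = 0.022). Summed, the 13 copies held 37.3%, 49.1% and 41.7% of the counts of Gapdh and its copies in the Th1 cultures and 62.7%, 58.8% and 63.9% in the treated cultures. The ratio to Gapdh was higher for Gm7336, Gm5559, Gm12033 and Gm13394, with rises from 0.90 to 1.79 on the log2 scale (adjusted p from 0.00703 to 0.0179 by limma), and passed the test for no other copy.

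**Figure D5:**
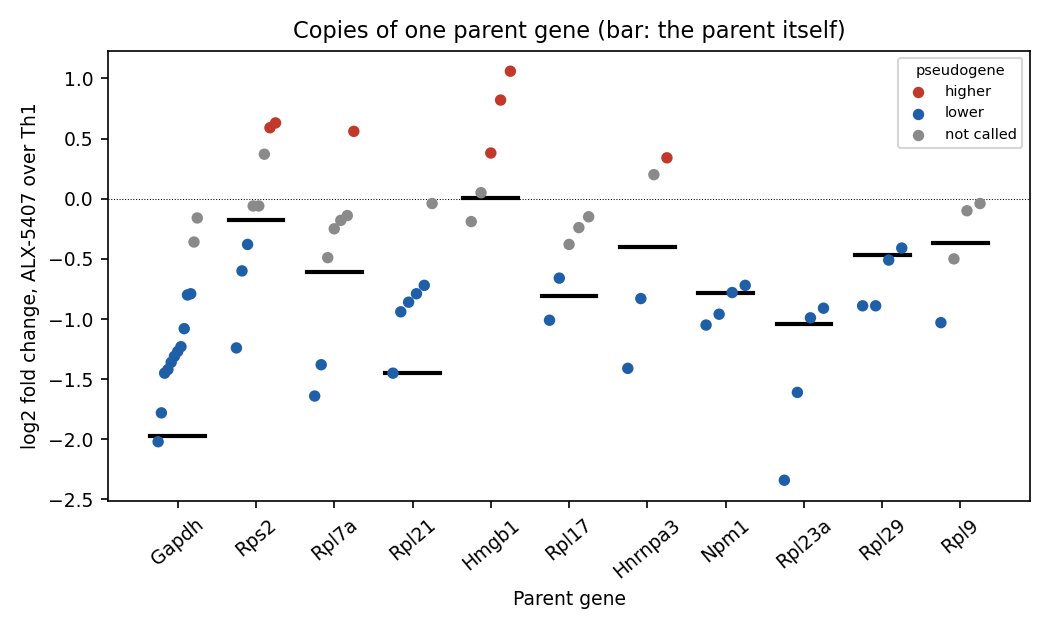
Points are log2 fold changes (vertical axis) of single processed pseudogenes, red for higher, blue for lower and grey for not called, for each parent with 4 or more members (horizontal axis), and black bars give the parent. The copies of Gapdh run from -2.02 to -0.16 with the parent at -1.97, and those of Rps2, Rpl7a and Hnrnpa3 were called in both directions.

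In 14 cases the pseudogene held more counts than the coding gene that it matched best. That gene passed the filter on low counts in 8 of these. In the others it had few or no counts, with Nlrp2, Gm45713, Gm10324 and Gm20390 at 0, Xlr5c at 1 and Gstp2 at 7.67. A best match need not be the gene that a copy came from. Rps10-ps2 had a mean of 7210 counts, where Rps10, which encodes a small-subunit protein, had 87. Rps10-ps1 had 594. Gm9385 and Gm12254, copies of Rpl24, had 613 and 162 where Rpl24 had 51.8. Gm9385, which lies in an exon of Gadl1 on the opposite strand, was at 0.66 on the log2 scale, whereas Rpl24 was at -0.96 and Gm12254 at -0.74. Gm3571 had 626 counts and Fdps 103, Mpc1-ps had 466 and Mpc1, the gene of a mitochondrial pyruvate carrier subunit, 192, and Dynlt1-ps1 had 441 and Dynlt1a, a dynein light chain gene, 76.5. These are counts, which are not scaled to length.

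Single cultures disagreed more on some members than on genes of like level. The biological coefficient of variation was more than 2 times its trend for 12 members (3.51%), where the same held for 0.182% of all genes tested. Gm10123, identical to Ppia over its aligned bases, had 250, 64.1 and 162 CPM in the Th1 cultures and 53.7, 114 and 67.3 CPM in the treated cultures. Ppia, the gene of cyclophilin A, had 814, 1114 and 1092 CPM and then 1039, 879 and 863 CPM, so in both groups the culture with the least Gm10123 had the most Ppia. Gm10123 was called lower (-1.02, adjusted p = 0.0167 in edgeR) although its groups overlapped. Rpl17-ps10 had 181, 448 and 216 CPM in the Th1 cultures, where Rpl17 had 1519, 999 and 1286 CPM, so the culture with the most of the copy had the least of the parent. Gm10123 was named after its values were seen.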

How the data were processed

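RNA sequencing of 6 cultures was analysed, 3 Th1 and 3 ALX-5407-treated, grouped by their labels. The authors deposited raw read counts per gene, unnormalized and separate for each culture, together with gene types and GRCm38 coordinates. Per the labels' processing notes, the tools included fastp, HISAT2 2.0.5 and featureCounts 1.5.0-p3 on mm10. How multiply mapping reads and strand were treated is not given in the sources used here. The members, parents and gene lists were chosen with earlier results of these data known.

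From the counts, groups were compared by the quasi-likelihood test of edgeR 4.0.16 (R 4.3.3) after filterByExpr (minimum count 10, minimum total 15) and TMM scaling, and p-values were adjusted by Benjamini-Hochberg over 15938 genes. Parents were taken from the name or from the best match on the same strand in BLAST 2.17.0 to coding transcripts of GENCODE M21 (at least 70% identity over 50% of the pseudogene, not at the same locus). All 342 members have identifiers in that release, 337 with the same start and end. Pseudogene-to-parent ratios, log2 of counts plus 0.5, were tested by limma 3.58.1 with a trend over all tested pairs, with Benjamini-Hochberg adjustment over those pairs.

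Named genes were the 10 members with the most counts, the 10 largest rises and falls with groups that did not overlap, the largest ratio changes, pairs called in opposite directions, copies of Gapdh, and members near the count limit. The result for 1 of these is not reported here. Members and genes outside this rule, such as those given as examples of a list, those with more counts than the parent and Gm10123, were chosen after their values were seen. With 3 cultures per group an exact two-sided permutation test cannot go below p = 0.1, so tests rest on spread pooled across genes. Replicates differed by more than sampling noise. In simulated counts for ALX-5407 against Th1 over 15961 genes, edgeR called 43 of 50 genes lowered by 1 on the log2 scale, 50 of 50 raised by 1, and 4 unchanged genes. DESeq2 1.42.0, other scalings, other limits and left-out replicates served as alternatives.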

Additional observations from a re-analysis of the deposited data

How the results depend on the processing

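The median log2 fold change of the members lay between -0.35 and -0.26 when each culture was left out in turn, and was -0.31 in DESeq2, -0.31 with DESeq2 size factors in edgeR and -0.34 with TMM factors from protein-coding genes. Calls ranged from 34 to 47 higher and 124 to 162 lower with a culture left out, and were 46 and 140 in DESeq2. They were 50 and 155 in edgeR without the filter on low counts. DEGs ranged from 3 to 7 higher, with 7 without ALX-5407 culture 1, and from 37 to 55 lower. The limit on mean count set how many members there were. At 50 counts or more (488 members) 9 DEGs were higher and 75 lower. At 200 or more (211 members) 30 were called higher and 94 lower, of which 2 and 24 were DEGs. With 100 or more in each group (301 members) 2 DEGs were higher and 27 lower. With parents from sequence, same-sign pairs numbered 255, opposite calls 18, and ratio calls 28 higher and 13 lower. Ratio calls ranged from 7 to 11 higher and 1 to 8 lower with a culture left out. With a culture left out and parents from sequence, runs added after seeing the data, they ranged from 20 to 32 higher and 3 to 20 lower. The causes were not tested.

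The sign of some members that had not passed the test turned with a culture left out. Rpl17-ps10 ranged from -0.63 to 0.11, with 0.11 without Th1 culture 2. Rpl38-ps2 ranged from -0.24 to 0.14, with 0.14 without Th1 culture 1 or ALX-5407 culture 3 and 0.02 without Th1 culture 2. Gm2606 ranged from -1.05 to 0.03, with 0.03 without ALX-5407 culture 3.

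Deviations of same-numbered cultures from their group means correlated at -0.0084, 0.00355 and 0.0635, and those of differently numbered cultures at -0.0615 to 0.0665. These values gave no sign of pairing by replicate number. They cannot exclude it, as the sources used here do not say whether same-numbered cultures shared a mouse. With the replicate number as a block, 53 members were higher and 156 lower, 4 and 40 were DEGs, the median was -0.29, 10 and 6 ratios were higher and lower, and 65 named pairs had the same sign and 8 opposite calls. Rpl17-ps10 and Rpl17-ps3 then passed the test (adjusted p = 0.0142 and 0.0487 in edgeR). Members near 100 counts have wide errors at this depth.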
